A study of Mus musculus with 9 samples.

Results

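The epidermal growth factor (EGF) family is described here as 10 genes: the ligands Areg, Ereg, Hbegf, Btc, Tgfa and Egf, and the receptors Egfr, Erbb2, Erbb3 and Erbb4. They were taken as every probe whose RefSeq identifier belongs to these genes, which gave 21 probes and 66 spots on each array, for 10 of the 18327 genes named on the array. The family was chosen by the log2 rise of Areg against control, which is among the largest in this experiment, so Areg is described without a test. The other members entered by family name, and their values against control come from the same control arrays that picked Areg. A probe counted as measured if all 3 arrays of some group showed it well above background. By that rule 11 of the 21 probes and 7 of the 10 genes were measured, while Ereg, Btc and Erbb3 were not.

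The study used cortical neurons taken from C57bl/6 mouse embryos at embryonic day 15 and cultured for 12 days. Control cultures were untreated, another group received 25 µM bicuculline for 6 h, and the last received 50 mM KCl for 6 h. Bicuculline blocks GABA-A receptors and so releases synaptic activity from inhibition, whereas raised extracellular KCl depolarises the cells directly. Each group has 3 one-colour Agilent 4x44k arrays. The labels do not say whether the 3 are separate cultures, so the p-values measure only how far these arrays scatter, and that scatter may be technical.

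EGF-family ligands are made as transmembrane precursors and are released by membrane proteases, mainly of the ADAM family. A released ligand brings receptors together as dimers, which activates their kinases and, through adaptor proteins and Ras, the MAP kinase and PI3 kinase pathways. Amphiregulin, epiregulin, betacellulin, heparin-binding EGF-like growth factor (HB-EGF), TGF-alpha and EGF all bind the EGF receptor; betacellulin, epiregulin and HB-EGF also bind ErbB4, and the neuregulins bind ErbB3 and ErbB4. ErbB2 has no known ligand and acts as a dimer partner. In the cortex, ErbB4 is best known from interneurons, and the EGF receptor from progenitors and astrocytes.

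The 75th percentile of the signal ranged from 1586 to 3087 intensity units over the 9 arrays, and 65.0% to 75.9% of the non-control spots exceeded background clearly; saturation was marked on 0 spots. Signals below are given as a percentage of the array's own 75th percentile, and differences as log2 with the standard error from limma (n = 3 arrays per group). The signal of a probe depends on its sequence, so levels are compared between groups and not between genes. All 7 markers of neurons, but also all 8 of astrocytes, were above background on all 9 arrays, so the cultures held RNA of more than the labelled cell type. In such bulk samples, fewer cells of a type and less RNA per cell cannot be told apart.

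The promoter of Areg is shown because Areg is the member with the largest change and because its upstream sequence is the only one among those found that holds a full cAMP response element, the palindrome bound by CREB-family factors. The RefSeq promoter table (GRCm38.p6) had windows, from 250 bases before to 50 after the transcription start, for 7 of the 10 members. The 250 bases upstream of Areg lie at chr5:91139349-91139598 on the plus strand, just before the gene's transcription start. Capitals mark TGACGTCA, the full element, and TGACG or its reverse complement CGTCA, the shorter element.
Areg: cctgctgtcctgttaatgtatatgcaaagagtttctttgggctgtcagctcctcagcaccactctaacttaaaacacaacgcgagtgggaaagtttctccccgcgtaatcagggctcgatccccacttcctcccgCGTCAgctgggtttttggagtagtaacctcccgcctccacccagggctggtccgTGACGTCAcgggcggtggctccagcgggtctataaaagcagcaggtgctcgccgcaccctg
The full element begins 61 bases before the start site. TGACGTCA was searched on both strands, and it was present in 1.79% of the 32851 windows in the table. TGACG was found 3 times in the Areg window, of which 2 overlap the palindrome, and 20.8% of all windows hold it at least once. The AP-1 motif TGAGTCA, whose reverse complement is TGACTCA, was not found in this window; 5.2% of windows hold it. Among the other members with a window, Btc and Erbb2 each hold 1 TGACG, and Tgfa, Egf (2 windows), Egfr and Erbb4 hold none of these motifs. Ereg, Hbegf and Erbb3 have no window in the table. A match only says that the letters are there.

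Areg encodes amphiregulin, a ligand of the EGF receptor best known from epithelia. In the untreated cultures its signal was 0.812%, 0.448% and 0.557%, and it was well above background on 0 of these 3 arrays. With bicuculline it was 20.5%, 20.1% and 18.1%, and with KCl 24.6%, 24.4% and 25.4%, above background on all 6. The stimulated groups thus lie far above control with no overlap, and the 3 KCl arrays lie above the 3 bicuculline arrays. Since control was not above background, the rise is given as a bound against a floor. The floor is, on each control array, the lowest signal of any probe called well above background. Against it Areg was at least 14.05-fold higher with bicuculline and at least 17.8-fold higher with KCl. The floor is not a strict limit, since a probe can exceed it uncalled, as Ereg did on KCl array 2. Here and below, such bounds hold only for this floor and this background correction. The log2 differences of 5.06 and 5.40 rest on control values below background and are no measure of size beyond these bounds. With normexp on local background they were 2.33 and 3.03. With normexp on the array background, an alternative chosen after seeing the data, they were 2.63 and 2.91. All of these normexp values are smaller than the bounds. Here and below, both forms of normexp were run with an offset of 50 intensity units added to every signal. Such an offset shrinks log2 differences of dim probes, so these values do not show the effect of background correction alone. KCl exceeded bicuculline, where both were measured, by a log2 difference of 0.34 ± 0.19, which was 0.14 with spike-in scaling, 0.22 with median scaling and 0.70 with normexp. The ± 0.19 comes from a spread shared by the 3 groups, which includes the control values below background. It is thus no measure of the scatter of the stimulated arrays alone. Areg is read by 1 probe with 1 spot per array. On the slide that held all 3 groups, the log2 differences, against the same kind of control value, were 5.02 for bicuculline and 5.46 for KCl.

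**Figure D1:**
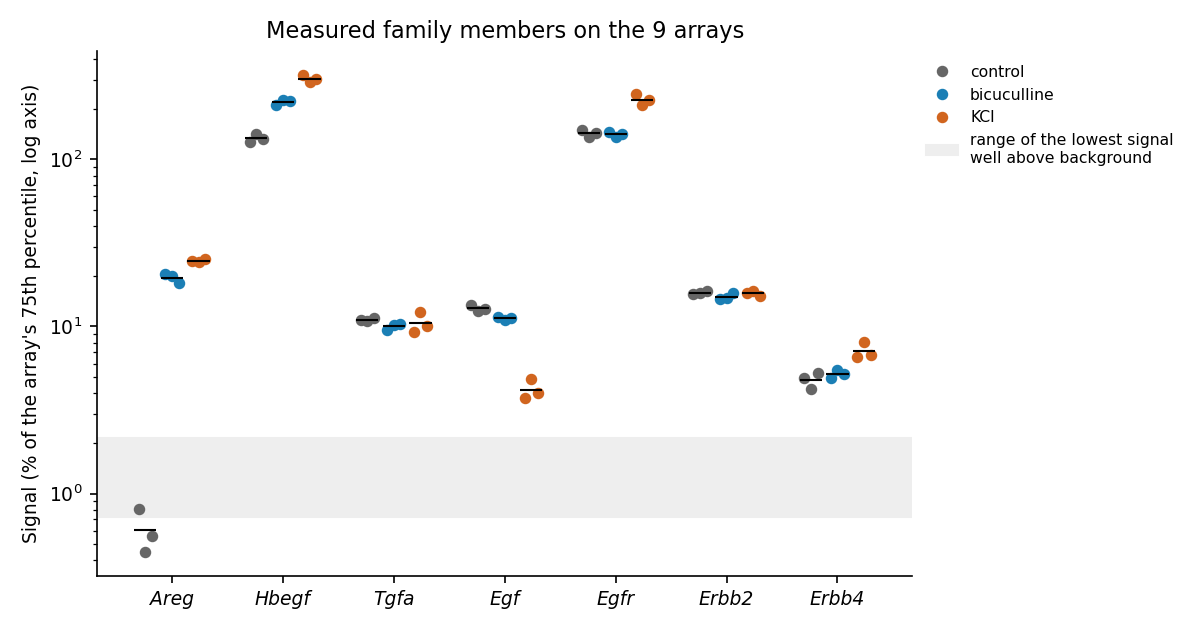
Signal of the 7 measured family members on each of the 9 arrays, as a percentage of the array's 75th percentile on a log axis. Points are arrays, short lines are group means, and the grey band spans the lowest signal called well above background on the 9 arrays (0.722% to 2.14%). Control arrays of Areg lie in or below the band while all stimulated arrays lie above 18%, Hbegf steps up from control to bicuculline to KCl, and Egf is low with KCl alone.

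Among the other 6 measured members, 1 rose and 0 fell with bicuculline against control, at a limma adjusted p under 0.05. Of all genes tested, 44.4% passed in that comparison, 17.4% as higher and 27% as lower. With KCl, 3 members rose and 1 fell, where 71.8% of all genes passed, 35.8% as higher and 36% as lower. Between KCl and bicuculline directly, 3 were higher and 1 lower with KCl, where 64.9% of all genes passed, 36.1% as higher and 28.8% as lower. The median log2 change over all genes was -0.03 for bicuculline and 0.02 for KCl; scaling by the array median or by spike-in controls moved the latter to -0.14 and -0.18.

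Hbegf, which encodes the heparin-binding ligand HB-EGF, rose with both stimuli. It read 126%, 141% and 133% in control, 210.4%, 227% and 225% with bicuculline, and 322%, 289.6% and 302% with KCl. The 3 groups do not overlap, in the order control, bicuculline, KCl. The log2 rise was 0.73 ± 0.06 with bicuculline (1.66-fold, limma adjusted p = 3.26e-05) and 1.19 ± 0.06 with KCl (2.28-fold, adjusted p = 6.61e-07). KCl exceeded bicuculline by 0.46 ± 0.06 (adjusted p = 0.000207); this last difference was 0.26 with spike-in scaling (adjusted p = 0.0267) and 0.33 under normexp on local background (adjusted p = 0.0508).

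Egf, the founding ligand of the family, went the other way. Its signal was 13.4%, 12.4% and 12.7% in control, 11.4%, 10.9% and 11.2% with bicuculline, and 3.71%, 4.83% and 3.99% with KCl. All 3 KCl arrays lie below all others, and the bicuculline arrays lie just below control. The fall with KCl was 3.09-fold (log2 -1.63 ± 0.09, limma adjusted p = 1.4e-06) against control and 2.69-fold (log2 -1.43 ± 0.09, adjusted p = 6.2e-06) against bicuculline. The bicuculline difference of -0.20 ± 0.09 did not pass (adjusted p = 0.105, 95% interval -0.41 to 0.01), but it passed without KCl array 2, whose only role is in the shared spread (adjusted p = 0.0104), as it did with quantile normalization (-0.23, adjusted p = 0.011) and in a fit of only these 6 arrays (adjusted p = 0.00898). Egf is read by 1 probe with 10 spots on each array, whose coefficient of variation within an array was 5.27% to 18.9%. Under normexp correction of local background the fall with KCl was lost (log2 -0.08, adjusted p = 0.93); the correction could not be fitted well on KCl array 1, where 16 spots lay below their local background. With each array's median background instead, an alternative chosen after seeing the data, the log2 difference was -0.90 (adjusted p = 2e-06).

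Tgfa, which encodes TGF-alpha, was read by 2 probes that disagree. The brighter, with 10 spots, gave 11.01%, 10.8% and 11.2% in control, 9.57%, 10.1% and 10.4% with bicuculline, and 9.23%, 12.1% and 10.1% with KCl. KCl overlaps both other groups, and bicuculline lies slightly below control. Its log2 differences were -0.14 ± 0.09 for bicuculline (limma adjusted p = 0.275, 95% interval -0.35 to 0.08) and -0.08 ± 0.09 for KCl (adjusted p = 0.445, interval -0.29 to 0.13). Without KCl array 2 the KCl difference was -0.19 and passed (adjusted p = 0.0159), as it did with median scaling (-0.24, adjusted p = 0.0241) and quantile normalization (-0.23, adjusted p = 0.023); a fit of only the 6 arrays called the bicuculline difference (adjusted p = 0.0378). The other probe, with 1 spot, gave 2.60%, 2.64% and 2.66% in control, 6.71%, 4.22% and 4.35% with bicuculline, and 3.26%, 4.33% and 4.04% with KCl. On this probe all stimulated arrays lie above all control arrays. It rose by 0.92 ± 0.18 with bicuculline (adjusted p = 0.00429 over all probes) and 0.55 ± 0.18 with KCl (adjusted p = 0.0249). The mean of both probes gave 0.39 with bicuculline (adjusted p = 0.0221), so no direction is given for the gene.

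Ereg, which encodes epiregulin, and Btc, which encodes betacellulin, did not meet the rule for a measured probe in any group. The Ereg probe was above background on 0 of 9 arrays, with 0.202% to 0.670% on 8 of them and 2.34% on KCl array 2. The Btc probes were above background on 0 and 1 of 9 arrays. Across the 10 member probes that were not measured, 9 of 90 values were well above background, and 7 of the probes had their highest value on KCl array 2, where the lowest signal called well above background was also the highest of the 9 arrays (2.14%). A level below these limits was not detectable, which does not show that the transcript is absent.

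Of the receptors, Egfr rose with KCl and not detectably with bicuculline. Its brightest probe gave 150.4%, 136% and 143% in control, 145%, 137% and 142% with bicuculline, and 247%, 211% and 226% with KCl. Bicuculline and control overlap, and all 3 KCl arrays lie above both. The KCl rise was 1.59-fold (log2 0.67 ± 0.06, limma adjusted p = 2.96e-05), and KCl exceeded bicuculline by 0.69 ± 0.06 (adjusted p = 4.26e-05). For bicuculline the difference was -0.02 ± 0.06 (adjusted p = 0.857, 95% interval -0.16 to 0.13). The other 3 Egfr probes rose with KCl by 0.32, 0.54 and 0.44, each past the threshold over all probes, and none of the 4 passed with bicuculline. The 4 probes carry the identifiers of 2 RefSeq transcripts, 2 probes each.

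Erbb4, a neuregulin receptor, also rose with KCl. Its signal was 4.91%, 4.21% and 5.29% in control, 4.93%, 5.46% and 5.18% with bicuculline, and 6.59%, 8.07% and 6.72% with KCl. The KCl arrays lie above the others without overlap. It rose by 0.57 ± 0.10 with KCl against control (1.48-fold, limma adjusted p = 0.00143) and by 0.45 ± 0.10 against bicuculline (adjusted p = 0.00583), with 0.12 ± 0.10 for bicuculline (adjusted p = 0.409, 95% interval -0.12 to 0.36). With normexp on local background these KCl differences were 1.16 and 1.15 and no longer passed (adjusted p = 0.112 and 0.143), whereas with the array background they were 0.56 (adjusted p = 7.35e-05) and 0.43 (adjusted p = 0.000597). With spike-in scaling the difference from bicuculline was 0.25 (adjusted p = 0.144). The other 2 Erbb4 probes were above background on 2 and 1 of 9 arrays.

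Erbb2, the receptor without a ligand of its own, stayed near its control level. Its signal was 15.6%, 15.8% and 16.3% in control, 14.6%, 14.8% and 15.8% with bicuculline, and 15.9%, 16.4% and 15.2% with KCl, so all 3 groups overlap. The log2 difference was -0.08 ± 0.04 for bicuculline (limma adjusted p = 0.169, 95% interval -0.18 to 0.02) and -0.01 ± 0.04 for KCl (adjusted p = 0.881, interval -0.11 to 0.09). With KCl it passed as lower under median scaling (-0.17, adjusted p = 0.00837) and quantile normalization (-0.14, adjusted p = 0.00317), and the latter also called it lower with bicuculline (-0.10, adjusted p = 0.0253). The 4 probes of Erbb3, a receptor with an impaired kinase, were above background on 1, 1, 0 and 0 of 9 arrays.

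**Figure D2:**
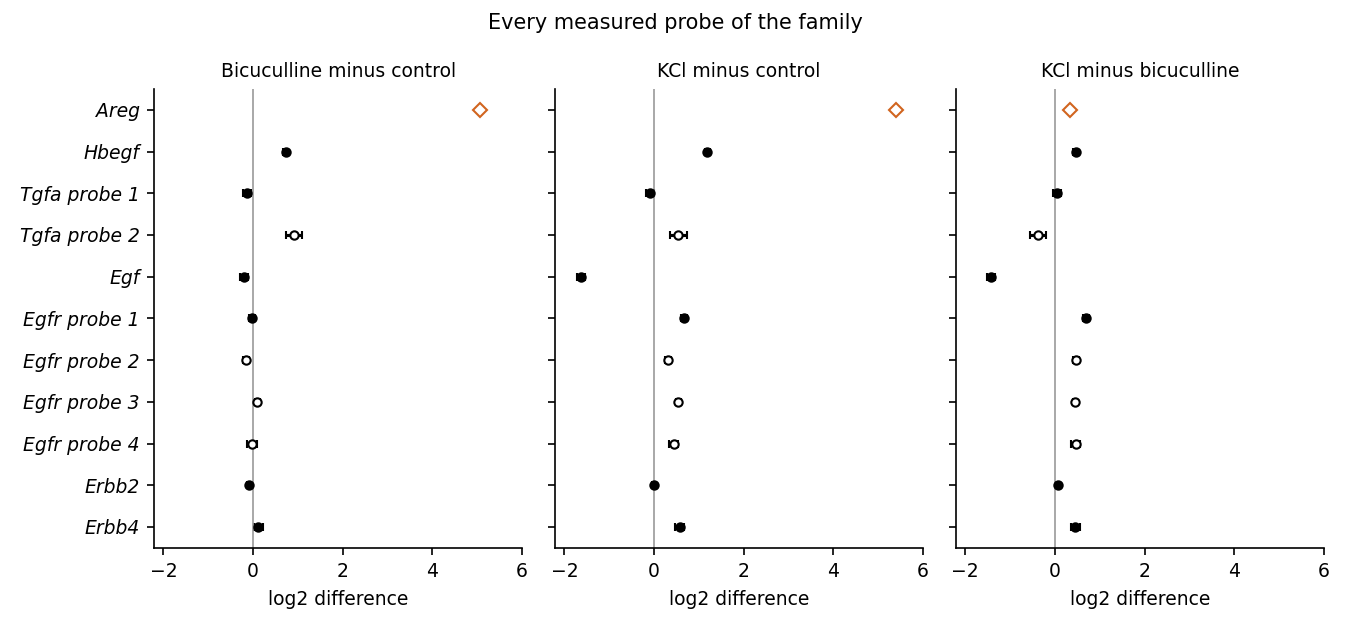
Log2 difference of each of the 11 measured family probes in the 3 comparisons, with bars of 1 standard error from limma. Filled points are the probe that stands for a gene, open circles are further probes, and the open diamond is Areg, shown without an error or test. All 4 Egfr probes lie right of 0 with KCl (0.32 to 0.67), the 2 Tgfa probes lie on opposite sides of 0 in both comparisons with control, and Egf lies at -1.63 with KCl.

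The arrays came from 3 slides, of which 1 held arrays 1 and 2 of control and bicuculline, 1 held control 3, bicuculline 3 and KCl 1 and 2, and 1 held KCl 3. Within the first of these the log2 difference of Hbegf with bicuculline was 0.71, and within the slide with all groups 0.76. On the latter, KCl against control gave 1.201 for Hbegf, -1.59 for Egf, 0.67 for Egfr and 0.46 for Erbb4. With the slide as a block the same 4 differences were 1.19, -1.60, 0.67 and 0.54, and all passed (limma adjusted p from 9.55e-05 to 0.0173). KCl 3, alone on its slide, adds nothing to these blocked differences. They rest on KCl 1 and 2, as the values within that slide do, and are no separate check.

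Markers of other cell types also differed between the groups. Of all genes tested, 44.4% passed with bicuculline (17.4% higher, 27% lower) and 71.8% with KCl (35.8% higher, 36% lower). A sum of signals follows its brightest probes, so it does not measure the share of a cell type. The summed signal of the 5 interneuron markers was 7994% to 8140% in control, 9024% to 9362% with bicuculline and 10786% to 11594% with KCl. With KCl 4 rose and 1 fell, and all 5 were above background on 9 arrays. Most of the KCl rise in the sum came from Sst, at 2598%, 2770% and 2666% in control and 5023%, 4750% and 4827% with KCl. Gad1, Gad2 and Slc32a1 rose with KCl by 0.18, 0.47 and 0.26, and Dlx1 fell by 0.14. The 5 markers of excitatory neurons likewise gave 4 higher and 1 lower with KCl, and 3 higher and 2 lower with bicuculline. Their sum was 1732% to 1868% in control, 1552% to 1765% with bicuculline and 1705% to 1831% with KCl. For the 8 astrocyte markers the sum was 15093% to 16352% in control, 15192% to 15444% with bicuculline and 17170% to 18072% with KCl, with 4 higher and 1 lower. The sum for the oligodendrocyte lineage was 3073% to 3189% in control and 3433% to 3526% with KCl, and that for vascular cells and fibroblasts was 363% to 379% and 431% to 454%. For microglia the sum of 5 measured markers was 312% to 325% in control, 250.1% to 366% with bicuculline and 343% to 535% with KCl, where 2 rose and 0 fell. For the 6 measured markers of cycling cells and progenitors the sum was 2367% to 2510% in control and 1994% to 2080% with bicuculline (0 higher, 4 lower). With KCl it was 2166% to 2272% (2 higher, 4 lower). The lower sum with KCl rests on Hes5, which read 593%, 662% and 585% in control and 102%, 110% and 110% with KCl. Nes and Pax6 rose with KCl by 0.49 and 0.44, and Mki67, Top2a and Sox2 fell by 0.20, 0.21 and 0.15. The part of these cell types in the rises of Erbb4 and Egfr was not tested. Of 8 epithelial markers, Cdh1, Trp63 and Dsg3 were above background on 0 arrays, and the sum of the 3 measured ones was 16.6% to 26.7% in control, 19.0% to 25.0% with bicuculline and 32.1% to 37.3% with KCl. Their part in the rise of Areg was not tested.

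Areg lies on chromosome 5 in a cluster of ligand genes, next to Ereg and close to Epgn and Btc in the RefSeq gene order. Of these, Epgn, which encodes the ligand epigen, was measured: 2.36%, 2.73% and 2.78% in control, 2.15%, 2.13% and 3.07% with bicuculline, and 2.78%, 2.60% and 2.15% with KCl. The groups overlap, with log2 differences of -0.12 ± 0.16 for bicuculline (limma adjusted p = 0.603) and -0.07 ± 0.16 for KCl (adjusted p = 0.714). Under quantile normalization the KCl difference was -0.51 (adjusted p = 0.0164). With normexp on the array background, the alternative chosen after seeing the data, it was 0.31 (adjusted p = 0.014), so no direction is given. These signals lie near the lowest signal called well above background, which reached 2.14% on KCl array 2.

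Farther along, Afp, the gene of alpha-fetoprotein, was above background on 0 control arrays and on all stimulated ones, through which alone it entered the comparison. It was at least 1.38-fold higher with bicuculline and at least 2.81-fold higher with KCl. Thap6 rose by 0.95 with bicuculline (adjusted p = 0.00454) and differed by -0.01 with KCl (adjusted p = 0.977). Rchy1, an E3 ubiquitin ligase gene, rose by 0.38 and 0.15. The kinase gene Cdkl2 fell by 0.29 and 0.37. G3bp2, a stress granule gene, fell by 0.10 and 0.08, both near the threshold (limma adjusted p = 0.0288 and 0.0489). Ankrd17 fell by 0.19 with KCl, and Parm1 and the platelet chemokine gene Pf4 rose by 0.20 and 0.70 with KCl. Pf4 passed narrowly (0.70 ± 0.27, limma adjusted p = 0.0435), with 45.1%, 82.7% and 63.4% on the KCl arrays. None of these 3 passed with bicuculline. For scale, 44.4% of all genes tested passed with bicuculline and 71.8% with KCl. Mthfd2l, a mitochondrial folate enzyme gene, passed in neither comparison.

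**Figure D3:**
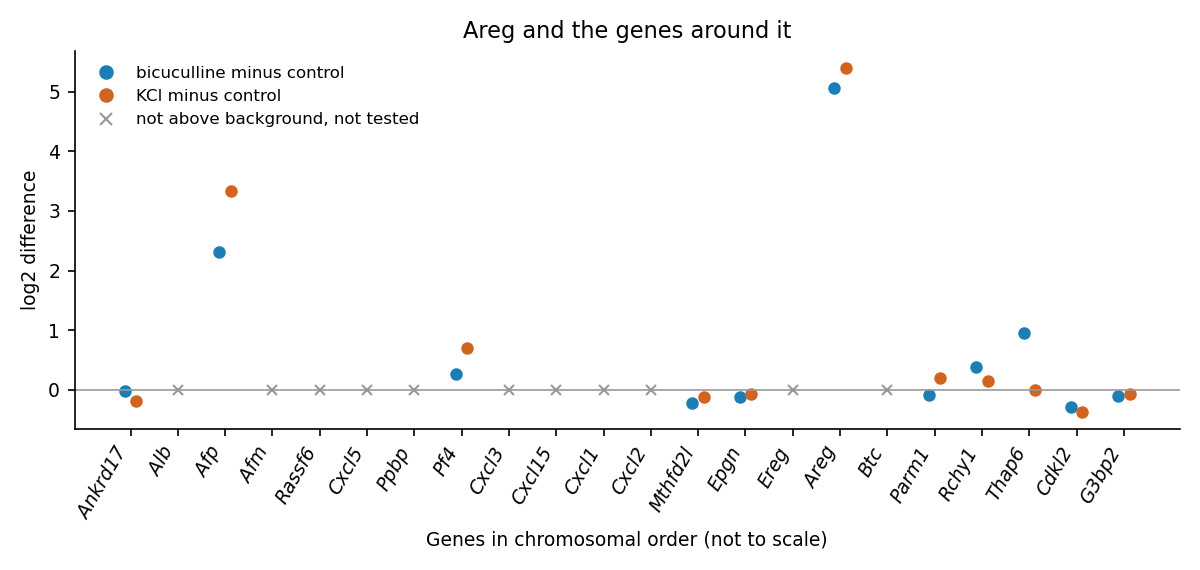
Log2 differences from control for genes on both sides of Areg, in chromosomal order and not to scale. Blue is bicuculline, orange is KCl, and grey crosses, drawn at 0 only to hold their place, are genes not above background and not tested. Areg and Afp were below background on all control arrays, so their points (5.06 and 5.40, 2.31 and 3.33) rest on unmeasured control values. Against the floor of the control arrays the rises were at least 14.05-fold and 17.8-fold for Areg and at least 1.38-fold and 2.81-fold for Afp. The other measured genes lie within 1 log2 unit of 0.

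The genes whose course over the 9 arrays was nearest to that of Areg were Fosb, Gpr171, Serpinb2, Cartpt and Tslp. Likeness was the root mean square difference between log2 values centred on the control mean, which was 0.60, 0.70, 0.72, 0.80 and 0.85 in that order. For Areg it rests in part on control values below background. Fosb, an AP-1 subunit induced by neuronal activity, differed from control by 4.14 and 5.30 with bicuculline and KCl. Serpinb2, a serine protease inhibitor, differed by 5.89 and 6.29, and Cartpt, the precursor of a neuropeptide, by 4.13 and 4.45. Gpr171, a G protein-coupled receptor, and Tslp, a cytokine, were like Areg below background on all 3 control arrays. They were at least 4.14-fold and 7.10-fold higher with bicuculline and at least 7.10-fold and 3.54-fold higher with KCl. Promoter windows were found for Fosb, Serpinb2 (2 windows) and Cartpt. The window of Cartpt holds TGACGTCA, that of Fosb holds TGACG without the full element, and those of Serpinb2 hold none of the motifs searched.

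Beyond the family's own members, the neuregulin Nrg1, a ligand of ErbB3 and ErbB4, rose with both stimuli. Its brightest probe gave 15.0%, 15.5% and 15.2% in control, 26.4%, 27.6% and 27.1% with bicuculline, and 61.1%, 63.4% and 59.6% with KCl. The 3 groups are well apart. The rise was 1.77-fold with bicuculline (log2 0.82 ± 0.03, limma adjusted p = 1.2e-06) and 4.02-fold with KCl (log2 2.01 ± 0.03, adjusted p = 6.73e-09), and KCl exceeded bicuculline by 1.18 ± 0.03 (adjusted p = 3.77e-07). The other 2 Nrg1 probes rose too, by 0.91 and 0.28 with bicuculline and 1.95 and 1.11 with KCl.

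Nrg3, an ErbB4 ligand of neurons, was 24.9%, 23.96% and 24.1% in control, 23.7%, 24.1% and 23.1% with bicuculline, and 20.0%, 18.5% and 18.5% with KCl. It fell with KCl by 0.36 ± 0.04 on the log2 scale (limma adjusted p = 7.62e-05), though normexp on local background turned this to 0.14 (adjusted p = 0.748); with the array background it was -0.21 (adjusted p = 0.00304). Nrg4 differed by 0.19 with bicuculline (adjusted p = 0.321) and 0.16 with KCl (adjusted p = 0.339), and without control array 3 the latter was 0.30 (adjusted p = 0.0499). With the slide as a block these differences were 0.19 (adjusted p = 0.00816) and -0.04 (adjusted p = 0.468). Nrg2 had no named probe.

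Of 13 measured genes for ligand release (sheddases, rhomboid proteases and their partners), 5 rose and 2 fell with bicuculline and 6 rose and 4 fell with KCl. Over all genes tested, 44.4% passed with bicuculline (17.4% higher, 27% lower) and 71.8% with KCl (35.8% higher, 36% lower). Their median log2 change was 0.02 and 0.19, against -0.03 and 0.02 over all genes; the KCl median was -0.01 with spike-in scaling and the bicuculline median -0.02 with median scaling, and under either scaling 1 rose with bicuculline and 2 with KCl. The count of 5 was 2 or 3 when any control array, any bicuculline array or KCl array 3 was left out. Adam17, the main sheddase of amphiregulin, HB-EGF and TGF-alpha, named here after its values were seen, differed by 0.06 with bicuculline (limma adjusted p = 0.391) and fell by 0.22 with KCl (adjusted p = 0.00618). Frmd8, which stabilises the Adam17 complex and was likewise chosen, rose by 0.50 with KCl (adjusted p = 9.28e-06). Nrd1, nardilysin, which enhances shedding of HB-EGF, rose by 0.43 (adjusted p = 8.69e-05) and 0.74 (adjusted p = 1.37e-06). Adam12, another sheddase, fell by 0.85 (adjusted p = 7.75e-06) and 0.44 (adjusted p = 9.51e-05). The 3 probes of the rhomboid protease Rhbdl3 disagree, from -0.92 to 1.40 with KCl.

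Of 35 measured signal transducers, 9 rose and 8 fell with bicuculline and 21 rose and 4 fell with KCl, with medians of -0.001 and 0.168. These counts stand beside 44.4% of all genes passing with bicuculline (17.4% higher, 27% lower) and 71.8% with KCl (35.8% higher, 36% lower). The number that passed is thus near that background, while the split by direction with KCl leans to rises under this scaling. With spike-in scaling the KCl median was -0.03 and 4 rose and 7 fell, and with median scaling 8 rose and 8 fell; 4 rose with bicuculline under either. The fall count with bicuculline was 5 without bicuculline array 2, bicuculline array 3 or control array 3. Shc3, a neuronal adaptor, rose by 0.42 (limma adjusted p = 0.00115) and 0.96 (adjusted p = 4.12e-06). Gab2, a docking protein, was above background on 0 of 3 control arrays, 1 of 3 bicuculline arrays and 3 of 3 KCl arrays. It entered the comparison through the KCl arrays alone, yet the counts of rises above include it for both stimuli. Gab2 was at least 2.08-fold higher with KCl, and no fold is given for bicuculline. For Sos1, a Ras exchange factor, 2 probes gave -1.04 and 1.27 with KCl, so no direction is given. The brightest probe of Pik3r1, a regulatory subunit of PI3 kinase chosen after its values were seen, fell by 0.23 (adjusted p = 0.00136) and 0.85 (adjusted p = 3.93e-07). Its 4 measured probes ranged from -0.47 to -0.10 with bicuculline. With KCl they disagree, from -0.85 to 0.48, so no direction is given there.

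The list of negative regulators had 13 rises and 3 falls with bicuculline and 15 rises and 5 falls with KCl among 26 measured genes, with medians of 0.16 and 0.28. The shares of all genes were 17.4% higher and 27% lower with bicuculline and 35.8% higher and 36% lower with KCl. Under every scaling tried (median, quantile, spike-in) both medians stayed above 0, the lowest being 0.08 for KCl. Dusp4, a phosphatase that inactivates MAP kinases, was 38.2%, 40.2% and 39.7% in control, 92.7%, 110.4% and 102% with bicuculline, and 234%, 249% and 241% with KCl. It rose 2.58-fold (log2 1.37 ± 0.06, limma adjusted p = 1.99e-06) and 6.13-fold (log2 2.62 ± 0.06, adjusted p = 3.31e-08).

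Errfi1, which encodes Mig6, an inhibitor that binds the kinase of the EGF receptor, was 199%, 199% and 193% in control, 297%, 288% and 284% with bicuculline, and 581%, 594% and 563% with KCl. The groups do not overlap. It rose by 0.55 ± 0.03 (limma adjusted p = 7.79e-06) and 1.56 ± 0.03 (adjusted p = 1.78e-08). Socs4, which promotes degradation of the EGF receptor, rose by 0.40 (adjusted p = 0.000324) and 1.34 (adjusted p = 1.65e-07). The Sprouty genes Spry1 and Spry2, inhibitors of Ras signalling named here after their values were seen, rose by 0.49 and 0.69 with bicuculline and 1.25 and 1.02 with KCl. Dusp7 and Grb14, likewise chosen, fell by 0.52 and 0.96 with bicuculline and 1.16 and 0.78 with KCl. Of the 2 promoter windows for Errfi1, 1 holds TGACGTCA. The windows found for Nrd1, Sos1, Socs4, Epgn, Nrg3 and Nrg4 do not, though those of Nrd1, Socs4 and Epgn hold TGACG.

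**Figure D4:**
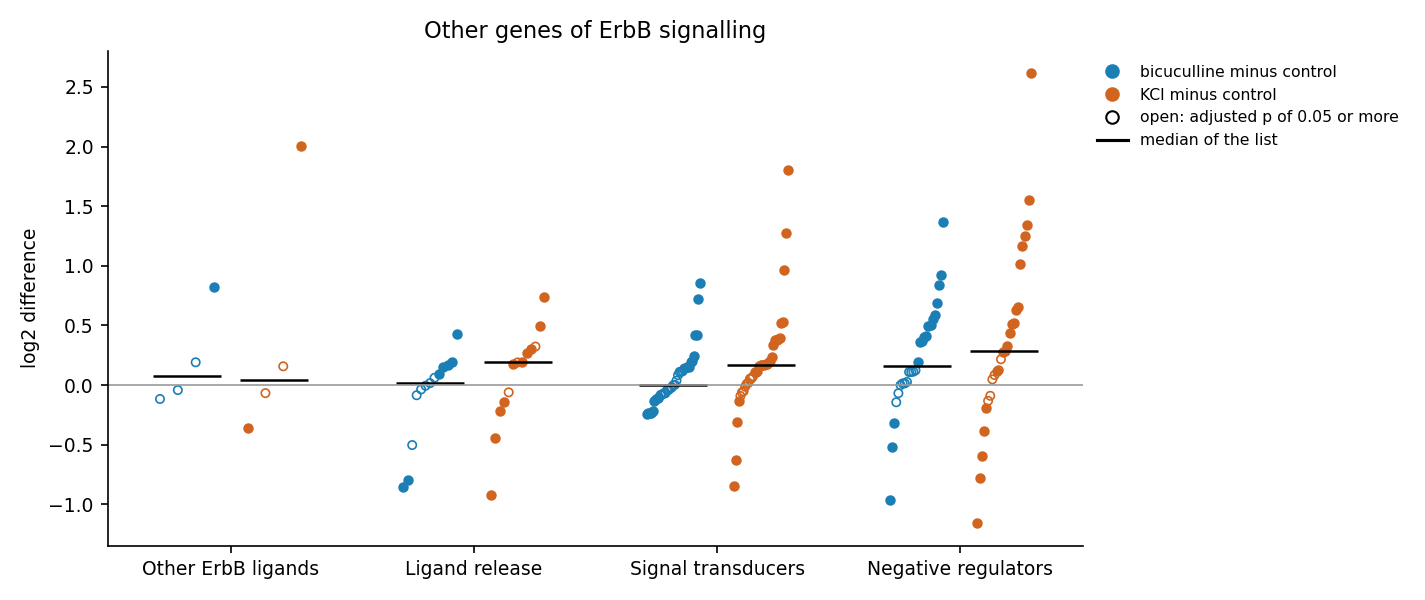
Log2 differences from control for the measured genes of 4 lists of ErbB signalling genes outside the family, sorted within each list. Each point is a gene, filled where the limma adjusted p is under 0.05 and open otherwise, blue for bicuculline and orange for KCl, and black lines are list medians. The highest points are Nrg1 at 2.01, Gab2 at 1.81, whose control arrays were below background, and Dusp4 at 2.62, all with KCl.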

How the data were processed

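Mouse cortical neuron cultures in 3 groups of 3 arrays were grouped by their labels. The values are processed signal intensity as the authors deposited it, with background subtracted by Feature Extraction, Agilent's scanner software (per the file headers version 10.7.3.1, and 10.5.1.1 per the submitters' processing notes), with no scaling between arrays; the deposited series values equalled it on all 45018 features. Intensity was set to log2 minus each array's 75th percentile over non-control spots. Outlier spots were left out (39 values of tested genes), spots of a probe averaged, and probes named through RefSeq identifiers (26888 of 41174 probes; 14286 are unnamed here). The brightest of 20992 kept probes stood for each of 14063 genes. limma 3.58.1 (R 4.3.3) fitted all 9 arrays, with Benjamini-Hochberg adjustment over all genes within a comparison, two-sided, at 0.05; it was tested on simulated data. With 6 residual degrees of freedom, precision is limited by how few arrays there are. The median SD between replicates was 0.064 (log2). Probe-level values come from the same fit over all kept probes.

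Members, gene lists and tests were chosen with earlier results of these data known. Named genes are the members, Epgn and the neuregulins, the 3 called genes with the largest change in each other list, the 5 genes most like Areg and its measured neighbours; others are marked as chosen after their values were seen. The same-numbered arrays correlated at r from -0.57 to 0.74 across genes and 3 of 9 pairs exceeded 0.1. These 3 are the pairs of control and bicuculline, which also share a slide, so whether the numbers pair the samples cannot be told. Protein sequences were not used here. Alternatives covered scaling, background correction, filters, probes, blocks, the prior and leaving out each array.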

Additional observations from a re-analysis of the deposited data

How the results depend on the processing

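Of the members other than Areg, 1, 4 and 4 passed for bicuculline against control, KCl against control and KCl against bicuculline. The first count was 2 with the mean of all probes, 3 with quantile normalization and 3 with a fit of the 6 arrays compared, and leaving out each array in turn gave 1 to 2, 4 to 5 and 4 to 4. Normexp gave 2 for KCl against control and 1 for KCl against bicuculline. Over all genes, rises with bicuculline, with KCl and of KCl over bicuculline numbered 2444, 5037 and 5076; they were 1577, 2942 and 2501 with median scaling, 1239, 2336 and 1376 with spike-in scaling, and 483, 1827 and 1099 with normexp. Falls numbered 3798, 5063 and 4047, against 340, 2308 and 1334 with normexp and 1191 for bicuculline with spike-in scaling. The share of calls that were rises was 39.2%, 49.9% and 55.6%; it was 32.9%, 31.8% and 33.9% with median scaling, 51.0%, 28.2% and 22.0% with spike-in scaling, 39.9%, 40.2% and 43.0% with quantile normalization, and 58.7%, 44.2% and 45.2% with normexp. With normexp, rises with bicuculline and KCl numbered 0 and 3 among the ligand release genes and 1 and 3 among the transducers, and 5 negative regulators rose with bicuculline. Reversed values were Egf for KCl over bicuculline (0.084), Nrg3 for KCl over control and over bicuculline (0.141 and 0.151), all with normexp, Tgfa for bicuculline with the mean of probes (0.391), and Epgn for KCl with normexp on the array background (0.306, adjusted p = 0.014), the alternative added after seeing the data. Normexp on local background fitted a background mean of -969 on KCl array 1 and -54.7 on control array 1, against 9.23 to 14.4 on the other arrays. With a replicate block, the log2 differences of Hbegf stayed 0.73 and 1.19 and no member's call changed. Whether the block marks a true pairing cannot be told, and 3 of 9 arrays correlated best with their own number. Arrays at or near background limit Areg in control, Ereg, Btc, Erbb3 and the dim probes. Of the values checked that were no overall count, 1433 kept direction and side of the threshold or moved within the spread, and 148 did not; the cause was not tested except for normexp.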
